A study of Mus musculus with 48 samples.

Results

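The cell cycle and DNA replication genes are 44 genes whose products copy and divide the genome, chosen by name and read from the tables of 6 mouse tissues, of 15541 genes that any of these tables listed. All mice were male C57Bl6 with diet-induced obesity from a high fat diet. The RYGB group had Roux-en-Y gastric bypass, in which food passes from a small stomach pouch into the jejunum and misses the duodenum, and the sham group had the operation without the bypass. Both groups then received a liquid elemental diet, and tissues were taken on day 9 at 10 am after an overnight fast. The 48 libraries came from 6 tissues. There were 4 of each group for liver, for subcutaneous white adipose tissue (WAT) and for gastrocnemius muscle. For the intestinal villi there were 3 RYGB and 4 sham libraries of duodenum, as many of jejunum, and 5 of each group of ileum. Villi were scraped off after ice-cold EDTA, and libraries were made with the TruSeq stranded mRNA kit. No label ties a library to an animal, so p-values measure only the spread between these samples.

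A cell that is to divide first passes from G1 into S phase, driven by cyclin E (Ccne1, Ccne2) and by E2f1, a transcription factor that is released from the retinoblastoma protein. Replication origins are licensed when Cdc6 and Cdt1 load a ring of the subunits Mcm2 to Mcm7, the replicative helicase, which Gins2 and its partners later activate. DNA synthesis then needs the sliding clamp Pcna, the nucleotide enzymes Rrm1, Rrm2, Tyms and Tk1, and Dnmt1 with Uhrf1, which copy DNA methylation to the new strand. Mitosis follows with Cdk1 and its cyclins (Ccna2, Ccnb1, Ccnb2), the checkpoint and destruction genes (Bub1, Bub1b, Cdc20, Ube2c) and the spindle and cytokinesis genes (Kif11, Kif23, Prc1 and others). Most hepatocytes, adipocytes and muscle fibres of an adult are not dividing, whereas the intestinal epithelium is renewed from dividing cells in the crypts, and the villi that were sampled here hold mainly cells that have left the cycle.

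By role, 3 members belong to G1/S control, 9 to origin licensing, 7 to DNA synthesis, 5 to chromosome structure, 13 to mitotic control and 7 to the spindle and cytokinesis. The first 3 groups (19 members) are called replication members below and the last 3 (25 members) mitosis members. WAT listed all 44 members, liver 43 (without Cdc6), ileum 27, duodenum and jejunum 23 each and muscle 15. The unit is CPM, a count scaled to a common library total, and a table listed a gene only if the number of libraries that reached 1 CPM was no lower than the size of its smaller group, so an unlisted member may be low rather than absent. The 11 members listed in every tissue were Ccne2, Mcm2, Mcm4, Mcm6, Mcm7, Pcna, Rrm1, Dnmt1, Mki67, Cenpa and Aurka. In muscle the listed members were mostly replication members (10 of 19), with 5 of the 25 mitosis members.

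Each tissue showed its own defining markers, with all 10 hepatocyte genes listed in liver, all 10 adipocyte genes in WAT, all 10 muscle fibre genes in muscle and all 18 villus enterocyte genes in each intestinal segment. Lgr5, which marks crypt stem cells, was listed in none of the 3 intestinal tables. The depth of the libraries is unknown, since the tables give CPM and no counts. Levels in different tissues come from tables that were normalized separately, and no difference between tissues was tested. In the sham libraries and per kb of exon, Pcna had the highest mean level of the listed members in 5 of the 6 tables (4.83 CPM per kb in liver, 14.5 in WAT, 8.46 in duodenum, 7.75 in jejunum and 4.33 in ileum). The exception was muscle, where Ube2c stood at 20.8 CPM per kb.

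Promoter sequences were examined because late and early members are controlled by different elements in textbook accounts: E2F sites for genes of the G1/S transition, and CHR elements with CCAAT boxes for genes of mitosis. RefSeq entries for the window from 250 bases before to 50 bases after the start (GRCm38.p6) were found for 36 of the 44 members, and none was used for Aurkb, Ccna2, Ccne2, Foxm1, Gins2, Kif20a, Mcm4 and Tpx2. The words searched on both strands were TTTCCCGC, TTTGGCGC, TTTGCCGC and TTTCGCGC for E2F, TTTGAA and TTCGAA for CHR, and CCAAT. An E2F word was present in 8 of 16 replication members and 1 of 20 mitosis members, compared with 2.6% of all 27025 genes with a promoter. A CHR word was present in 3 of 16 replication members and 16 of 20 mitosis members (21.7% of all genes), and CCAAT in 10 of 16 and 18 of 20 (41.1% of all genes). These matches describe the letters and are not shown to be binding sites. The 160 bases before the start are given below for 6 members on which the results turn: Mcm2, Mcm5 and Cdt1, which were higher in WAT, Mcm6 and Top2a, which had the largest fold changes in liver, and Kif23, the mitosis member called in jejunum. The words are in capitals, in Mcm5 and Mcm6 a pair of E2F words overlap, and the stretch of Cdt1 holds none. None of the 6 stretches lies in an annotated exon (0 bases in each).
Mcm2 promoter, chr6:88898781-88898940, minus strand: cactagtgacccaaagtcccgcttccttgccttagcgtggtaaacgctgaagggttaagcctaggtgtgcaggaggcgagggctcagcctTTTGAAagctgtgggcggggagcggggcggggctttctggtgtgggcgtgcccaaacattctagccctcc
Mcm5 promoter, chr8:75109349-75109508, plus strand: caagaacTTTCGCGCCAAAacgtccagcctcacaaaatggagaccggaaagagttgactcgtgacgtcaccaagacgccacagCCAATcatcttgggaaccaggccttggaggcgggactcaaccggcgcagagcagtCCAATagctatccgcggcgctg
Cdt1 promoter, chr8:122567855-122568014, plus strand: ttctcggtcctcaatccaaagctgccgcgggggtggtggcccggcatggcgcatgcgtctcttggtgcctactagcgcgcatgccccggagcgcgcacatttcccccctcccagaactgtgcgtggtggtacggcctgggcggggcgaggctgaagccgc
Mcm6 promoter, chr1:128359706-128359865, minus strand: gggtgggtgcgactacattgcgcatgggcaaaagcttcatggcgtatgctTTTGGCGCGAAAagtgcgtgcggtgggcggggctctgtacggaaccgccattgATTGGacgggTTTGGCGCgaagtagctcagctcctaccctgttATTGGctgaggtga
Top2a promoter, chr11:99024190-99024349, minus strand: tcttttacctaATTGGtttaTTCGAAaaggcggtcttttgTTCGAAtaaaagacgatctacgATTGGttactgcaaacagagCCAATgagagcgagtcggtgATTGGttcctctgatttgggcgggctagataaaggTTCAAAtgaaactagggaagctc
Kif23 promoter, chr9:61946800-61946959, minus strand: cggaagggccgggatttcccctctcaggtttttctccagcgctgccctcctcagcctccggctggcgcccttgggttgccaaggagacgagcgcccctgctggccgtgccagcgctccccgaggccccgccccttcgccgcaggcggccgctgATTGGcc

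The stretches of Mcm5 and Mcm6 hold E2F words and that of Top2a holds CHR words beside several CCAAT boxes. Mcm2 is a replication gene with a CHR word and without one of these E2F words in the window. The E2F word of Cdt1 and the CHR word of Kif23 lie after the RefSeq start and are not printed. For Mcm5, Mcm6 and Kif23 the bases just after that start were not found in a transcript of the gene in the GENCODE M21 annotation. Whether a word lies before or after the start of these genes therefore depends on the annotation.

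The question in each tissue was whether members differed between the RYGB and the sham group. Differences are on the log2(CPM + 1) scale, RYGB minus sham, which understates the change of low genes. A differentially expressed gene (DEG) had an adjusted p under 0.05 (limma, Benjamini-Hochberg over all genes tested in the tissue) and a fold change of at least 1.5. Of the members tested, 6 were DEGs in WAT, 2 in jejunum, 1 in ileum, and 0 in liver, muscle and duodenum. Values are RNA of bulk tissue, and in intestine of scraped villi, in which fewer cells of a type and less RNA per cell cannot be told apart.

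**Figure D1:**
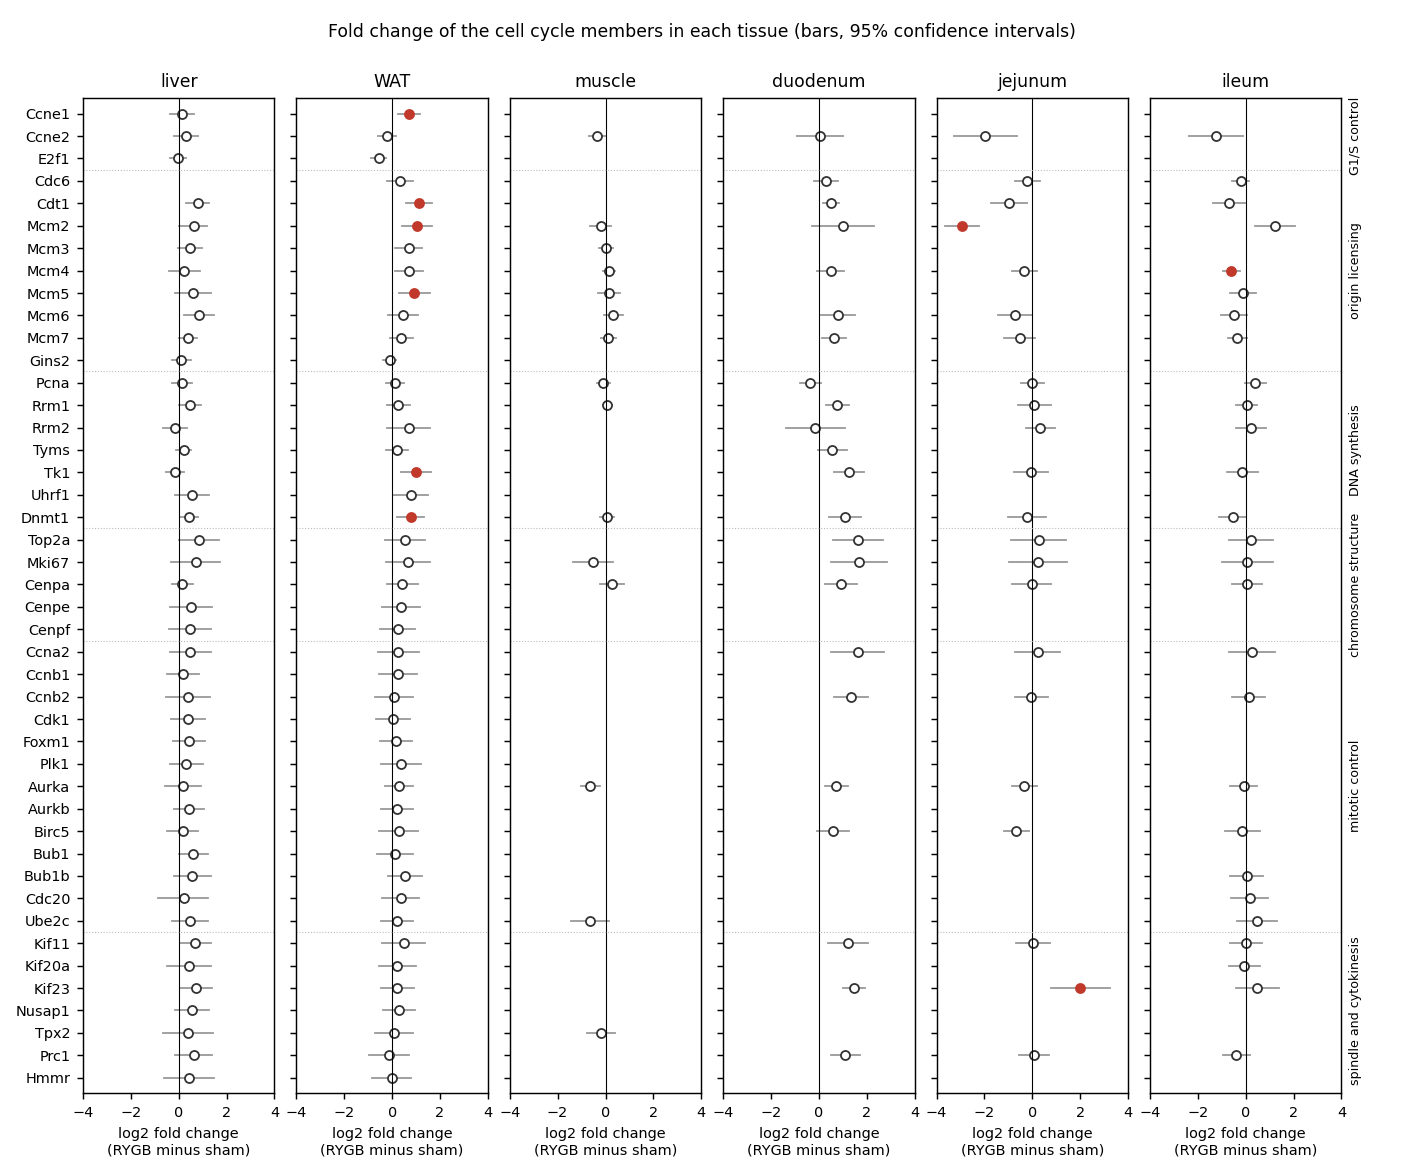
Log2 fold change (RYGB minus sham, x axis) of each member (y axis, ordered by role) in the 6 tissues, with 95% confidence intervals as bars and DEGs as filled red points. The 6 DEGs of WAT are all replication members, and Mcm2 lies at -2.93 in jejunum and at 1.21 in ileum. Members without a point were not listed or, for Tyms in jejunum, had a mean under 1 CPM.

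In WAT, 6 of 44 members were DEGs, all higher in the RYGB group and all replication members: Cdt1, Mcm2, Tk1, Ccne1, Mcm5 and Dnmt1. Among all 13379 genes tested in WAT 24.1% were DEGs and 14.9% were DEGs that were higher, so 6 of 44 was a smaller share than in the tissue as a whole. Within the members, the DEGs were 6 of 19 replication members and 0 of 25 mitosis members. With sequencing lane as a covariate they were 12 of 19 and 2 of 25 (30.3% of all genes), all higher, and the 2 mitosis members were Bub1b and Mki67 (1.09, adjusted p = 0.0488 by limma). In that fit RYGB replicate 1 and sham replicate 3 were each alone in their lane, so the difference rested on the libraries of lanes 5 and 6. In the fit without lane 0.05 as a threshold on the unadjusted p gave 10 of 19 and 0 of 25, where 50.0% of all genes passed. The log2 fold change was positive for 39 of 44 members (59.0% of all genes), with a median of 0.69 for the replication members and 0.23 for the mitosis members, with 0.11 for all genes tested.

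Cdt1, which loads the helicase onto origins (chr8:122568015-122573554, plus strand, GRCm38 with GENCODE M21 as for all genes below), had 16.2, 20.7, 21.6 and 38.7 CPM in RYGB replicates 1 to 4 and 8.6, 10.1, 11.8 and 10.1 CPM in sham replicates 1 to 4. The groups did not overlap, and the log2 fold change was 1.12 (SE 0.24, adjusted p = 0.00931). Mcm2 (chr6:88883474-88898780, minus strand) had 23.6, 33.9, 30.4 and 60.7 CPM in RYGB and 12.6, 15.3, 21.9 and 16.7 CPM in sham (log2 fold change 1.05, SE 0.27, adjusted p = 0.019). Again each RYGB library was above each sham library, with RYGB replicate 4 far above the others. Mcm5 (chr8:75109569-75128439, plus strand), a partner of Mcm2 in the ring, had 24.4, 32.7, 29.5 and 67.3 CPM in RYGB and 14.2, 18.2, 22.0 and 19.3 CPM in sham (0.93, SE 0.29, adjusted p = 0.0335).

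The remaining DEGs of WAT act around the G1/S transition and on new DNA. Tk1, which salvages thymidine (chr11:117815526-117826092, minus strand), had 10.8, 14.4, 15.2 and 24.6 CPM in RYGB and 4.4, 8.9, 10.0 and 7.3 CPM in sham (0.99, SE 0.28, adjusted p = 0.0254). The span of its gene overlaps that of Afmid on the other strand, which was itself higher (log2 fold change 0.86, adjusted p = 0.0187 by limma). Whether their exons overlap was not examined, and the use of strand in counting is not stated, so the Tk1 value is uncertain. The same holds for Prc1 (Rccd1) and Mcm7 (Cops6, Ap4m1), and Cdt1 overlaps Gm20388 on its own strand, with which the counting could split its reads, while no overlap was found for Mcm2, Mcm4, Mcm5, Ccne1, Kif23 and Aurka. Ccne1, the cyclin that starts S phase (chr7:38097984-38107534, minus strand), had 6.1, 7.6, 7.1 and 13.1 CPM in RYGB and 5.0, 4.1, 4.4 and 4.9 CPM in sham (0.71, SE 0.21, adjusted p = 0.0283). Dnmt1 (chr9:20907209-20959888, minus strand) had the highest level of the 6 per kb of exon (8.95 CPM per kb in sham), with 83.4, 95.5, 101.2 and 204.0 CPM in RYGB and 59.7, 66.6, 70.4 and 67.5 CPM in sham (0.77, SE 0.25, adjusted p = 0.0386). In all 6 genes the groups did not overlap (26.1% of all genes in WAT had each RYGB library above each sham library).

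The other helicase genes had positive log2 fold changes and were not DEGs. Mcm4 had 33.6, 47.9, 46.9 and 89.0 CPM in RYGB and 29.2, 30.0, 34.7 and 29.2 CPM in sham (0.71, SE 0.25, adjusted p = 0.0517). Mcm3, Mcm6 and Mcm7 lay between 0.39 and 0.69, and in all 3, as in Mcm4, the RYGB and sham libraries overlapped. E2f1, unlike them, was lower, with 10.1, 11.9, 11.0 and 11.8 CPM in RYGB and 13.0, 18.8, 18.8 and 18.1 CPM in sham. Every RYGB library lay below every sham library (15.0% of all genes in WAT), and the adjusted p was 0.0154, but the log2 fold change of -0.56 (SE 0.14) is smaller than 1.5-fold. E2f2, a related factor from a list of G1 genes that are not members, had 17.0, 17.2, 29.2 and 51.7 CPM in RYGB and 7.2, 7.6, 6.3 and 4.1 CPM in sham (1.91, SE 0.34, adjusted p = 0.00511).

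Among the mitosis members of WAT the groups overlapped, and RYGB replicate 4 stood above the rest. Mki67, the proliferation marker at the chromosome surface, had 37.7, 48.9, 54.8 and 129.9 CPM in RYGB and 22.5, 47.8, 57.4 and 32.1 CPM in sham (0.67, SE 0.40, adjusted p = 0.207). Top2a, which untangles chromosomes, had 32.9, 43.0, 42.7 and 112.2 CPM against 22.2, 43.4, 45.2 and 32.8 CPM (0.55, SE 0.37, adjusted p = 0.26). For both genes sham replicates 2 and 3 lay within or above the range of RYGB replicates 1 to 3. The kinase of mitotic entry was no different in this. Cdk1 had 7.1, 10.9, 8.9 and 19.2 CPM against 6.9, 11.8, 15.6 and 9.6 CPM (0.03, SE 0.31, 95% confidence interval -0.67 to 0.73). Ccnb1, its cyclin, had 1.7, 2.9, 1.9 and 5.5 CPM against 1.0, 3.2, 3.6 and 1.7 CPM (0.23, SE 0.35). Pcna had 30.9, 36.8, 33.3 and 52.3 CPM against 31.5, 32.4, 41.0 and 34.8 CPM (0.11, SE 0.17, 95% confidence interval -0.27 to 0.49), and sham replicate 3 was above RYGB replicates 1 to 3.

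**Figure D2:**
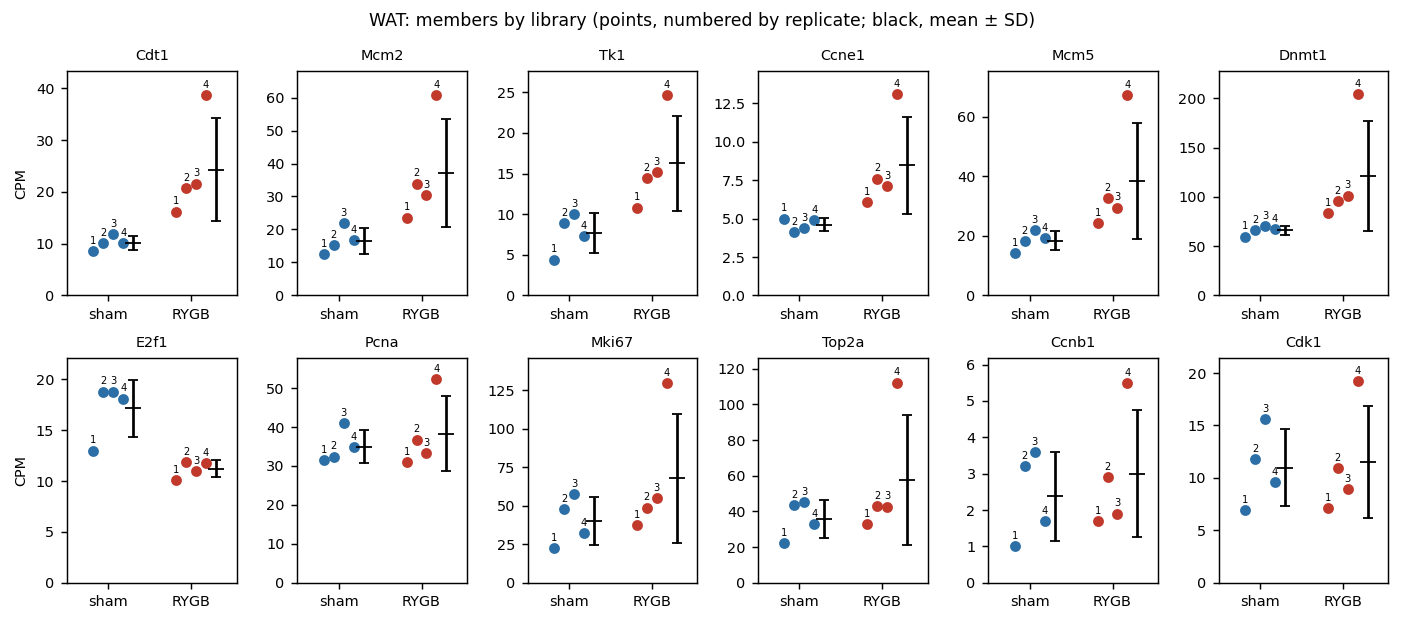
CPM (y axis, linear from 0) of 12 members in WAT by library, with sham libraries in blue, RYGB libraries in red and the mean ± SD in black. The groups separate in the 6 DEGs of the upper row and, downward, in E2f1, and they overlap in Pcna, Mki67, Top2a, Ccnb1 and Cdk1. RYGB replicate 4 is the highest library in 11 of the 12 panels.

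RYGB replicate 4 was the highest of the 8 WAT libraries in 41 of 44 members, and sham replicate 1 was the lowest in 37. Without RYGB replicate 4 the DEGs were 4 higher (Mcm2, Mcm5, Cdt1, Tk1) and 1 lower (E2f1), and the median of all members was 0.029. Without 1 other library at a time the DEGs numbered from 2 (without sham replicate 4) to 8 (without RYGB replicate 1), with 3 without RYGB replicate 3, sham replicate 2 or sham replicate 3 and 4 without sham replicate 1, and Mcm2 and Cdt1 were among them each time. Within lane 5, which held RYGB replicates 2 and 3 and sham replicates 1 and 2, the differences of the 6 DEGs were between 0.59 (Ccne1) and 1.15 (Mcm2). In lane 6, with RYGB replicate 4 and sham replicate 4 alone, they were between 1.26 and 1.84.

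Lymphocyte markers were higher in every RYGB library of WAT and highest in replicate 4. The mitosis members summed to 216, 291 and 284 CPM in RYGB replicates 1 to 3 and to between 164 and 358 CPM in sham. The replication members summed to 412, 531 and 502 CPM in the same RYGB libraries and to between 324 and 446 CPM in sham. The 10 B cell markers summed to 1133 CPM in RYGB replicate 1, 1751 in replicate 2, 2153 in replicate 3 and 3050 in replicate 4, and to between 14.2 and 27.0 CPM in the sham libraries, and 10 of 10 were DEGs that were higher. The 13 T cell markers summed to between 520 and 1976 CPM in RYGB, again highest in replicate 4, and to between 17.7 and 32.5 CPM in sham, with 13 of 13 DEGs. At such sham levels a B or T cell marker could be listed through its RYGB libraries alone, and how many were was not counted. Of 8 germinal centre markers 6 were listed, with Gcsam and Nuggc among those that were higher, and their sum overlapped between the groups (152 to 168 CPM in RYGB, 92.7 to 221 CPM in sham). Endothelial markers were lower (8 of 8 DEGs). RYGB replicate 4 also had the lowest sum of adipocyte markers (9204 CPM, with 14193 to 25823 in the other libraries). Its sum of neutrophil markers was the highest (308 CPM, with 41.1 to 70.0 in the other libraries). The part of these cell types in the change of the replication genes was not tested.

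Further replication genes, from a list of 44 that are not members, gave 10 DEGs of 43 tested in WAT, all higher. Of all genes tested in WAT, 14.9% were DEGs that were higher and 9.23% DEGs that were lower. Pold1, the catalytic subunit of polymerase delta, had 39.2, 50.3, 51.7 and 80.0 CPM in RYGB and 17.8, 18.9, 22.0 and 20.7 CPM in sham (1.39, SE 0.19, adjusted p = 0.00188). Rfc2 of the clamp loader was at 0.92 (adjusted p = 0.0057) and Rpa1 of the single-strand binding complex at 0.76 (adjusted p = 0.00967). Of 70 further mitosis genes tested 5 were higher (Smc4, H2afx, Cdc25b, Lmnb1 and Hmgb2) and 1 was lower (Anln, -1.12, adjusted p = 0.0156). The medians were 0.44 for the replication list and 0.29 for the mitosis list. Of 20 genes that restrain the cycle 5 rose: Cdkn2a (0.86), Cdkn2d (0.79), Gadd45b (1.10), Btg1 (0.96) and Cdkn1b (0.67, adjusted p = 0.018).

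In liver, 0 of the 43 listed members were DEGs, where 7.08% of all 11807 genes tested were (836 genes). The log2 fold change was positive for 40 of 43 members, and 71.0% of all genes in liver were positive. The median of the members was 0.43 and that of all genes 0.13. At an unadjusted p under 0.05 there were 9 members (20.9%), against 26.9% of all genes. The members nearest to a call were of origin licensing, which had 4 of its 8 tested members at an unadjusted p under 0.05.

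Cdt1 had 4.7, 8.2, 7.2 and 4.2 CPM in RYGB replicates 1 to 4 and 2.7, 4.5, 2.3 and 2.7 CPM in sham (0.79, SE 0.22, adjusted p = 0.0513). Mcm6 had 16.0, 28.8, 23.3 and 13.0 CPM in RYGB and 7.9, 17.7, 8.8 and 9.0 CPM in sham (0.85, SE 0.27, adjusted p = 0.0769). In both genes only sham replicate 2 reached into the RYGB range. Mcm2 was at 7.9, 15.2, 15.5 and 6.9 CPM against 5.8, 9.9, 5.3 and 6.3 CPM (0.62, SE 0.27, adjusted p = 0.166). Mcm7 was at 9.9, 15.2, 13.6 and 9.8 CPM against 7.5, 10.8, 7.5 and 10.0 CPM (0.39, SE 0.17). Dnmt1 was at 17.1, 23.4, 26.4 and 17.8 CPM against 12.0, 18.7, 14.1 and 17.1 CPM (0.43, SE 0.17). The same libraries were high in each, RYGB replicates 2 and 3 and, among the sham libraries, replicate 2.

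Among the mitosis members RYGB replicates 2 and 3 and, of the sham libraries, replicate 2 were again high in most of the genes named here, but RYGB replicates 1 and 4 changed places, with replicate 4 the higher in the sum of the mitosis members (113 against 54.4 CPM) and replicate 1 the higher in that of the replication members (141 against 129 CPM). Mki67 had 5.6, 28.8, 29.7 and 16.8 CPM in RYGB and 8.6, 21.2, 7.4 and 7.5 CPM in sham (0.71, SE 0.47, adjusted p = 0.357). Top2a had 5.9, 22.0, 17.3 and 10.6 CPM against 4.1, 13.0, 5.8 and 5.6 CPM (0.85, SE 0.38, adjusted p = 0.182). In Mki67 RYGB replicate 1 was the lowest of the 8 livers, and in Top2a it lay just above the 3 lower sham livers. Kif11, the motor that separates the spindle poles, had 3.0, 7.2, 7.2 and 4.7 CPM against 2.1, 5.5, 2.6 and 2.0 CPM (0.70, SE 0.29). Kif23 had 2.4, 8.8, 5.1 and 4.1 CPM against 1.9, 4.1, 1.6 and 2.7 CPM (0.72, SE 0.31). Bub1, of the spindle checkpoint, had 0.9, 3.0, 2.7 and 1.7 CPM against 0.8, 1.9, 0.8 and 0.5 CPM (0.61, SE 0.27). In these 3 genes sham replicate 2 was again above RYGB replicate 1. Cdk1 had 2.9, 8.4, 7.5 and 5.2 CPM against 3.2, 7.4, 4.5 and 2.4 CPM (0.39, SE 0.32). Ccnb1 had 0.6, 1.4, 2.2 and 0.7 CPM against 1.1, 2.1, 0.5 and 0.3 CPM (0.18, SE 0.30). Pcna had the smallest log2 fold change of the members named here, with 13.3, 16.0, 13.8 and 8.7 CPM against 8.8, 14.5, 11.3 and 11.8 CPM (0.14, SE 0.19). The summed level of the 25 mitosis members was 54.4, 189, 187 and 113 CPM in RYGB replicates 1 to 4 and 69.1, 169, 65.8 and 53.1 CPM in sham replicates 1 to 4.

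**Figure D3:**
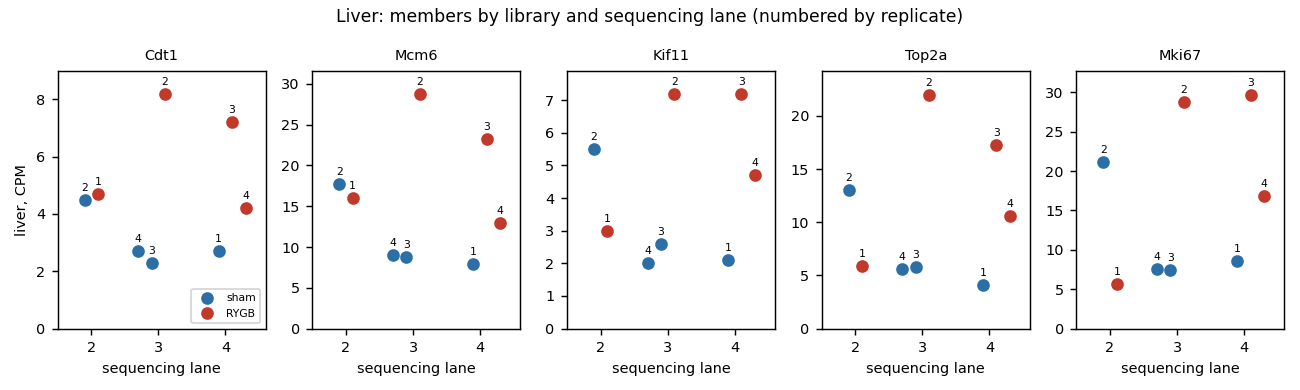
CPM in liver (y axis, linear from 0) of 5 members by sequencing lane (x axis), with sham libraries in blue and RYGB libraries in red, numbered by replicate. In lanes 3 and 4 every RYGB library lies above the sham libraries of its lane, and in lane 2, which holds RYGB replicate 1 and sham replicate 2, the sham library is the higher in 4 of the 5 genes.

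The differences in liver varied between the sequencing lanes named in the labels. In lane 3 (RYGB replicate 2, sham replicates 3 and 4) 43 of 43 members were higher in RYGB, with a median difference of 1.20, and in lane 4 (RYGB replicates 3 and 4, sham replicate 1) 39 of 43 were, with a median of 0.73. In lane 2, with RYGB replicate 1 and sham replicate 2, 2 of 43 were higher in RYGB and the median was -0.81. With lane as a covariate the DEGs remained 0. Without RYGB replicate 1 there were 5 DEGs (Cdt1, Top2a, Mki67, Kif23 and Prc1), and without RYGB replicate 4 or sham replicate 2 there were 2 (Cdt1 and Mcm6), all higher.

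Some genes that act as cells leave rest were higher in liver. Of 11 G1 cyclins and kinases tested 3 were DEGs, where 5.79% of all genes in liver were DEGs that were higher. Ccnd1, the cyclin that answers growth signals, had 74.5, 116.3, 163.2 and 78.6 CPM in RYGB and 37.8, 64.1, 32.5 and 45.4 CPM in sham (1.22, SE 0.26, adjusted p = 0.0206). Myc was at 1.30 (SE 0.28, adjusted p = 0.022) and Cdc25a, a phosphatase that activates the cyclin kinases, at 0.78 (SE 0.18, adjusted p = 0.0249). Among 41 further replication genes 1 was a DEG, Brca1, with 5.0, 8.0, 6.4 and 5.2 CPM against 3.4, 3.9, 2.2 and 2.7 CPM (0.82, SE 0.18, adjusted p = 0.0234). Of 55 further mitosis genes 0 were DEGs. Gadd45b, a stress gene from the list of brakes, had 3.4 to 4.5 CPM in RYGB and 0.5 to 0.7 CPM in sham (1.61, SE 0.15, adjusted p = 0.000417) and was the 1 DEG of 18 tested. With every sham library under 1 CPM, Gadd45b was listed only through its RYGB libraries, which limits what its call can show. Macrophage markers were higher at the same time (7 DEGs of 16, summed level 1243 to 3358 CPM in RYGB and 584 to 1024 CPM in sham), as were neutrophil markers (4 of 8, 43.1 to 675 CPM against 13.4 to 22.0 CPM), and their part in the values of the members was not tested.

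In muscle, 0 of the 15 listed members were DEGs, as were 0 of all 11966 genes tested (0.0%). The log2 fold change was positive for 8 of 15 (62.9% of all genes). At an unadjusted p under 0.05 there were 2 members and 14.6% of all genes. Aurka, a kinase of the spindle poles, had the smallest p, with 6.1, 5.2, 3.6 and 5.7 CPM in RYGB and 7.7, 9.3, 6.5 and 10.7 CPM in sham (-0.63, SE 0.18, adjusted p = 0.162). Each RYGB library lay below each sham library, which held for 2.62% of all genes in muscle. Ccne2 was at 5.7, 5.4, 5.0 and 6.0 CPM against 8.8, 6.9, 5.4 and 8.6 CPM (-0.35, SE 0.15, adjusted p = 0.317). Ube2c, a ubiquitin-conjugating enzyme of mitotic exit, had 40.8, 32.9, 16.3 and 47.1 CPM against 72.2, 28.9, 48.4 and 67.1 CPM (-0.66, SE 0.35). The span of its gene overlaps that of Tnnc2, a fast muscle troponin, on the other strand, which had between 5782 and 9407 CPM. Ube2c was between 0.282% and 0.787% of that level, so its muscle values, the level per kb included, are uncertain.

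The groups overlapped in the replication members of muscle. Mcm6 had 5.5, 6.6, 6.1 and 4.4 CPM against 2.9, 4.8, 5.9 and 3.8 CPM (0.33, SE 0.19). Mcm2 had 12.6, 10.0, 8.6 and 17.6 CPM against 13.1, 14.8, 15.4 and 11.9 CPM (-0.20, SE 0.19). Pcna had 6.3, 6.6, 7.0 and 5.3 CPM against 6.8, 5.7, 7.0 and 7.6 CPM (-0.09, 95% confidence interval -0.36 to 0.18). Mki67 was at 0.3 to 1.4 CPM in 7 of the 8 libraries and at 4.5 CPM in sham replicate 3, and Cenpa, the histone of centromeres, lay between 0.6 and 2.3 CPM in both groups. Rrm1, the large subunit of ribonucleotide reductase, had the highest level after Ube2c per kb (3.74 CPM per kb in sham), at 39.5 to 45.7 CPM in RYGB and 38.4 to 44.9 CPM in sham (0.08, SE 0.08), while Rrm2, the small subunit made in S phase, was not listed in muscle. Of 22 further mitosis genes and 31 further replication genes tested, 0 were DEGs.

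In duodenum, the segment that food no longer passes after RYGB, 0 of the 23 listed members were DEGs, and 1 of all 10850 genes tested was (0.00922%). At an unadjusted p under 0.05 there were 15 of 23 members (65.2%), against 18.8% of all genes. The log2 fold change was positive for 21 of 23 (66.6% of all genes), with a median of 0.80 where all genes had 0.12. In 12 members the lowest RYGB library was above the highest sham library, which held for 12.7% of all genes. By role these were 9 of 10 listed mitosis members and 3 of 13 listed replication members.

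Kif23, a motor of the spindle midzone that is needed for cytokinesis, had 7.9, 4.4 and 6.1 CPM in RYGB replicates 1 to 3 and 1.6, 1.3, 1.5 and 1.8 CPM in sham replicates 1 to 4 (1.46, SE 0.20, adjusted p = 0.0933). Prc1, which bundles the same midzone, had 8.0, 3.6 and 5.2 CPM against 1.5, 1.6, 3.0 and 2.0 CPM (1.10, SE 0.27, adjusted p = 0.142). Ccnb2 had 6.7, 3.2 and 4.6 CPM against 1.3, 0.4, 1.4 and 2.2 CPM (1.34, SE 0.31, adjusted p = 0.134). The groups did not overlap in these 3 genes, and RYGB replicate 1 was the highest. Top2a had 25.9, 8.6 and 13.9 CPM against 3.9, 1.5, 5.4 and 7.2 CPM (1.64, SE 0.45, adjusted p = 0.15), and Mki67 had 36.1, 9.6 and 11.9 CPM against 3.9, 1.7, 8.1 and 6.1 CPM (1.67, SE 0.52, adjusted p = 0.17). RYGB replicate 1 stood well above the other RYGB libraries in Top2a and Mki67, and it was the highest library in 18 of 23 members.

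Replication members were more mixed in duodenum. Tk1 had 7.0, 3.9 and 3.7 CPM against 0.9, 1.1, 1.4 and 2.4 CPM (1.25, SE 0.27, adjusted p = 0.132). Rrm1 had 13.8, 9.2 and 11.7 CPM against 7.3, 4.4, 6.6 and 7.2 CPM (0.77, SE 0.21, adjusted p = 0.147). Cdt1 had 14.8, 14.2 and 13.6 CPM against 8.7, 11.0, 8.9 and 10.5 CPM (0.50, SE 0.14, adjusted p = 0.15). In these 3 genes the groups did not overlap. Dnmt1 had 17.9, 9.4 and 13.9 CPM against 6.0, 3.9, 4.7 and 9.4 CPM (1.09, SE 0.30). In contrast, Pcna had 15.9, 13.2 and 17.2 CPM against 23.4, 21.1, 22.5 and 14.3 CPM (-0.36, SE 0.19, adjusted p = 0.348), with 3 of 4 sham libraries above each RYGB library. Mcm2 had 15.5, 10.0 and 13.1 CPM against 1.8, 6.7, 4.0 and 18.8 CPM (1.01, SE 0.57), and sham replicate 4 alone was above the RYGB group.

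Sham replicate 4 weighed on the count: without it 6 members were DEGs, all higher (Mcm2, Dnmt1, Top2a, Tk1, Ccnb2 and Kif23). All 7 duodenal libraries came from the same lane. Of the further lists, 26 of 26 replication genes and 26 of 28 mitosis genes had positive log2 fold changes with 0 DEGs, led by Hells (1.19, adjusted p = 0.132) and by Racgap1, the partner of Kif23 in the midzone complex, with 7.5, 2.2 and 4.4 CPM against 0.5, 0.4, 1.2 and 1.5 CPM (1.52, SE 0.35, adjusted p = 0.134). Too few sham libraries of Racgap1 reached 1 CPM for it to be listed without the RYGB libraries. How many other low genes of these lists were listed through the RYGB libraries alone was not counted, so the positive shares may partly reflect the listing. Of 12 crypt stem cell markers 8 had positive log2 fold changes with 0 DEGs and a median of 0.24, and their sum overlapped between the groups (176 to 238 CPM in RYGB, 136 to 440 CPM in sham, highest in sham replicate 1). Of these Olfm4 had 57.2, 7.9 and 26.4 CPM in RYGB and 5.8, 0.6, 5.0 and 6.9 CPM in sham (2.35, SE 0.71, adjusted p = 0.163). The Paneth cell markers summed to 200, 116 and 58.9 CPM in RYGB and to between 28.7 and 67.0 CPM in sham. RYGB replicate 1 was the highest library in Olfm4 and in the Paneth cell sum. The villus enterocyte markers summed to between 80298 and 98579 CPM in RYGB and between 79237 and 109497 CPM in sham. T cell markers summed to between 41.7 and 94.5 CPM in RYGB and between 15.1 and 48.6 CPM in sham. The part of these cell types in the values of the members was not tested.

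In jejunum, 2 of the 22 listed members that were tested were DEGs, Mcm2 lower and Kif23 higher, where 9.75% of all 10854 genes tested were DEGs. The median of the members was -0.04, that of all genes -0.04, and 9 of 22 were positive (45.5% of all genes). Mcm2 had 3.2, 0.8 and 2.4 CPM in RYGB replicates 1 to 3 and 20.9, 19.0, 31.0 and 17.4 CPM in sham replicates 1 to 4. The highest RYGB library was thus far below the lowest sham library, and the log2 fold change was -2.93 (SE 0.32, 95% confidence interval -3.64 to -2.23, adjusted p = 0.000939). It was a DEG in every fit that left out 1 library (-3.19 to -2.58) and with lane as a covariate.

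The listed partners of Mcm2 in the helicase ring had smaller log2 fold changes and were not DEGs. Mcm6 had 2.1, 3.5 and 7.6 CPM in RYGB and 6.8, 6.6, 7.2 and 8.2 CPM in sham (-0.73, SE 0.32, adjusted p = 0.186). Mcm7 had 1.7, 2.9 and 3.8 CPM against 5.1, 2.8, 3.6 and 6.6 CPM (-0.53, SE 0.29, adjusted p = 0.309), and Mcm4 was at -0.33 (SE 0.24, adjusted p = 0.448). Mcm3 and Mcm5 were not listed. Per kb of exon, Mcm2 was between 1.78 and 3.67 times the mean of Mcm4, Mcm6 and Mcm7 in the sham libraries and between 0.142 and 0.972 times in the RYGB libraries, and no test was made of this ratio.

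Kif23 (chr9:61915905-61946774, minus strand) had 5.3, 39.7 and 13.5 CPM in RYGB and 5.8, 2.4, 2.4 and 1.8 CPM in sham (2.01, SE 0.55, adjusted p = 0.0465). The groups overlapped, since RYGB replicate 1 was below sham replicate 1, and RYGB replicate 2 alone carried much of the difference. Without RYGB replicate 2 the log2 fold change was 1.31 (adjusted p = 0.133), and with lane as a covariate, where that library is alone in its lane, it was also 1.31 (adjusted p = 0.132). The call was also lost without RYGB replicate 3 (adjusted p = 0.0967), sham replicate 2 (0.0805), sham replicate 3 (0.105) or sham replicate 4 (0.112). Prc1, its neighbour at the midzone, was at 0.08 (SE 0.28). Mki67 had 2.2, 3.4 and 14.2 CPM against 2.1, 3.8, 9.4 and 3.3 CPM (0.24, SE 0.54). Top2a had 1.6, 2.4 and 12.9 CPM against 2.7, 2.7, 5.4 and 2.4 CPM (0.26, SE 0.51). In Mki67 and Top2a RYGB replicate 3 was the highest library, so the library with the most Kif23 was not the one with the most Mki67.

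Of the other members in jejunum, Ccne2, Cdt1, Birc5 and Mcm6 (-0.73) had negative log2 fold changes whose unadjusted 95% confidence intervals lay below 0, and none of these 4 was a DEG, whereas the intervals of the licensing members Cdc6 (-0.21), Mcm4 (-0.33) and Mcm7 (-0.53) spanned 0. Ccne2, a cyclin of the G1/S transition, had 10.7, 0.7 and 5.2 CPM against 35.0, 10.7, 19.2 and 15.4 CPM (-1.96, SE 0.59, adjusted p = 0.0649). The span of its gene overlaps that of Ints8 on the other strand, which was at 17.2 to 26.3 CPM over the 7 libraries with a log2 fold change of 0.14. Cdt1 had 6.5, 2.1 and 6.6 CPM against 9.6, 9.7, 8.1 and 13.5 CPM (-0.98, SE 0.33, adjusted p = 0.0951). Birc5, or survivin, which acts in the complex of Aurkb, had 3.6, 1.9 and 3.4 CPM against 4.6, 4.7, 4.8 and 6.8 CPM (-0.67, SE 0.24, adjusted p = 0.114). In Cdt1 and Birc5, as in Mcm2, the groups did not overlap, and 12.5% of all genes in jejunum had each RYGB library below each sham library. The clamp showed no such gap, with Pcna at 20.1, 20.6 and 14.8 CPM against 16.9, 19.7, 14.3 and 23.4 CPM (95% confidence interval -0.49 to 0.49).

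**Figure D4:**
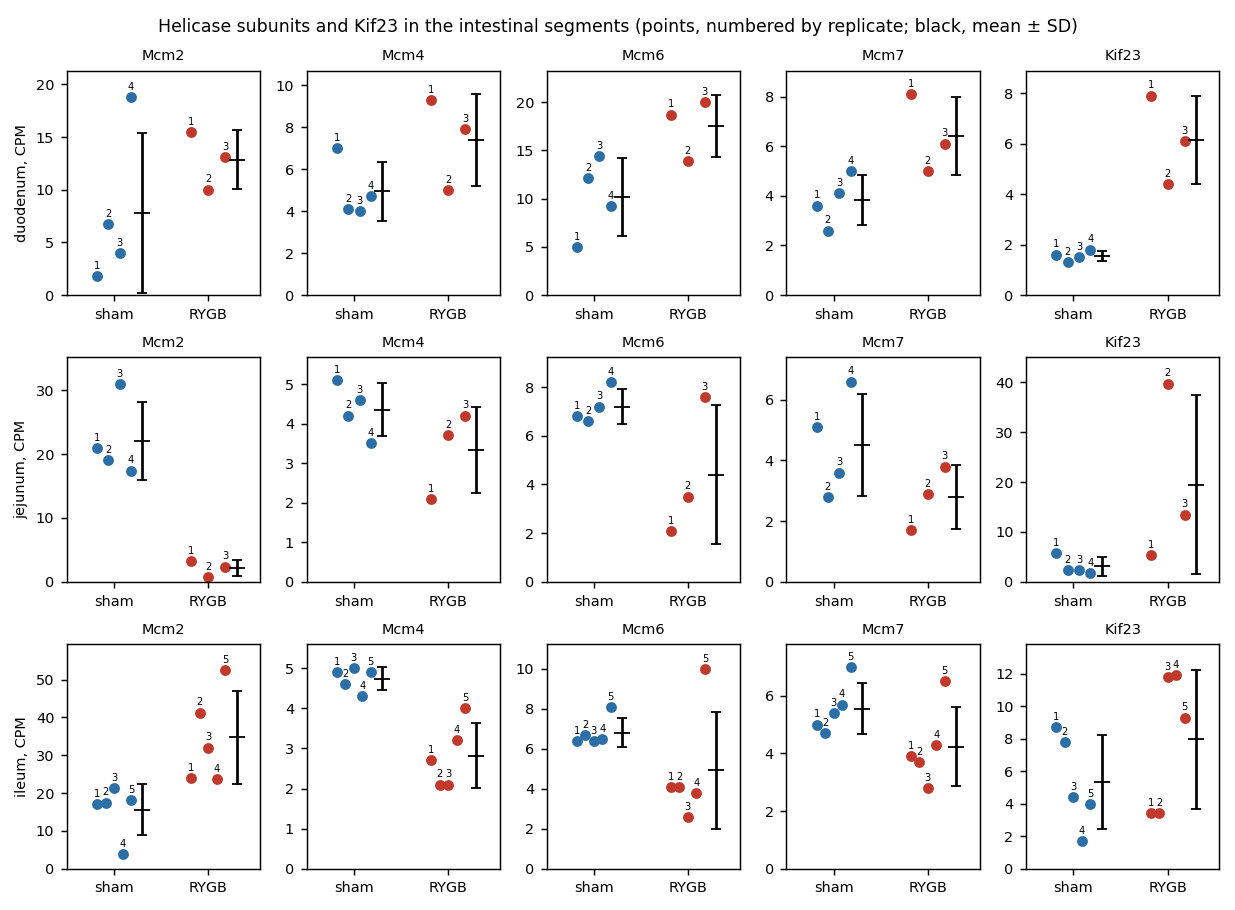
CPM (y axes, linear from 0) of Mcm2, Mcm4, Mcm6, Mcm7 and Kif23 in duodenum, jejunum and ileum, by library, with sham in blue, RYGB in red and the mean ± SD in black. Mcm2 is lower in each RYGB library of the jejunum (0.8 to 3.2 CPM) than in any sham library and higher in each RYGB library of the ileum (23.8 to 52.5 CPM) than in any sham library. In Mcm4, Mcm6 and Mcm7 no RYGB group of the ileum lies above its sham group.

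Other genes of the cycle in jejunum gave a few DEGs, where 4.62% of all genes were DEGs that were higher and 5.13% DEGs that were lower. Among 26 further replication genes 2 were DEGs, both lower, and 5 of the 26 had positive log2 fold changes. Rfc3 of the clamp loader was among these DEGs (2.6, 2.6 and 3.3 CPM against 6.4, 6.8, 5.7 and 8.6 CPM, -1.03, adjusted p = 0.0145). Of 26 further mitosis genes 0 were DEGs. E2f2 was higher, with 14.0, 22.5 and 53.3 CPM against 8.3, 6.6, 9.8 and 8.7 CPM (1.53, SE 0.37, adjusted p = 0.0318), as were Cdkn1a (377.3, 375.7 and 333.3 CPM against 199.7, 258.6, 161.8 and 163.8 CPM, 0.91, adjusted p = 0.0187) and Cdkn2b (1.05, adjusted p = 0.0225), inhibitors of the cyclin kinases. Rbl2, a pocket protein of resting cells, was lower (-0.76, adjusted p = 0.0494). Paneth cell markers rose (4 DEGs of 7, summed level 123 to 239 CPM in RYGB and 33.8 to 70.0 CPM in sham), T cell markers fell (5 of 6), crypt stem cell markers gave 2 DEGs of 12, both higher (Cd44, 1.93, and Prom1, 1.98), and villus enterocyte markers summed to 87505 to 121004 CPM in RYGB and 136126 to 155665 CPM in sham. Their part in the values of the members was not tested.

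In ileum, 1 of the 27 listed members was a DEG, where 6.05% of all 10735 genes tested were. This was Mcm4 (chr16:15623897-15637400, minus strand), with 2.7, 2.1, 2.1, 3.2 and 4.0 CPM in RYGB replicates 1 to 5 and 4.9, 4.6, 5.0, 4.3 and 4.9 CPM in sham replicates 1 to 5 (-0.61, SE 0.16, adjusted p = 0.0391). The groups did not overlap, which held in this direction for 6.92% of all genes. The call was lost when RYGB replicate 1, 2 or 3 or any sham library was left out (adjusted p from 0.0556 to 0.0984), while the log2 fold change stayed between -0.71 and -0.54.

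Mcm2 was on the upper side in ileum. It had 24.0, 41.3, 32.0, 23.8 and 52.5 CPM in RYGB and 17.0, 17.5, 21.4, 3.9 and 18.1 CPM in sham (1.21, SE 0.38, adjusted p = 0.0701), and it was not a DEG. Every RYGB library was above every sham library, as in 2.42% of all genes. Relative to the mean of Mcm4, Mcm6 and Mcm7 per kb of exon, Mcm2 was between 3.83 and 7.78 times in RYGB and between 0.434 and 2.32 times in sham. Mcm6 had 4.1, 4.1, 2.6, 3.8 and 10.0 CPM against 6.4, 6.7, 6.4, 6.5 and 8.1 CPM (-0.51, SE 0.25), and Mcm7 had 3.9, 3.7, 2.8, 4.3 and 6.5 CPM against 5.0, 4.7, 5.4, 5.7 and 7.0 CPM (-0.35, SE 0.19). For both, RYGB replicate 5 was apart from the other RYGB libraries.

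The rest of the ileal members overlapped between the groups. Ccne2 had 10.9, 19.6, 1.5, 4.9 and 2.0 CPM against 26.1, 11.9, 11.4, 15.3 and 10.5 CPM (-1.25, SE 0.52, adjusted p = 0.148). Cdt1 had 7.0, 6.9, 2.3, 9.3 and 10.0 CPM against 9.8, 10.0, 9.4, 10.8 and 17.0 CPM (-0.69, SE 0.30). Dnmt1 had 5.1, 4.1, 2.6, 6.5 and 10.6 CPM against 8.7, 6.8, 9.1, 7.3 and 9.4 CPM (-0.55, SE 0.26). All 3 were lowest in RYGB replicate 3. Pcna had 12.9, 14.4, 10.2, 13.8 and 17.3 CPM against 12.0, 12.4, 7.8, 6.7 and 13.2 CPM (0.39, SE 0.20). Mki67 had 3.7, 4.1, 1.9, 9.5 and 21.7 CPM against 4.5, 8.9, 9.4, 3.2 and 4.6 CPM (0.06, SE 0.48). Top2a had 4.1, 3.6, 2.1, 6.8 and 17.5 CPM against 3.1, 7.4, 7.2, 2.7 and 3.9 CPM (0.21, SE 0.43).

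Within the RYGB ileum, replicate 5 was the highest of the 10 libraries in 20 of 27 members and replicate 3 the lowest in 22. Without RYGB replicate 5 there were 3 DEGs, all lower (Dnmt1, Mcm4 and Mcm6), and the median of the members was -0.32 where it had been 0.01. In the full set 14 of 27 were positive (38.4% of all genes). No lane held both groups in ileum, where surgery and lane cannot be told apart. Mcm10, a factor that acts with the helicase, was the 1 DEG of 26 further replication genes, with 9.2 to 12.7 CPM in RYGB and 13.8 to 23.1 CPM in sham (-0.65, SE 0.15, adjusted p = 0.0274), and Rbl2, Cdkn2d and Ccng2 were the DEGs of 19 brakes, all lower. Of 12 crypt stem cell markers 5 had positive log2 fold changes, the median was -0.03 and the sums overlapped (108 to 184 CPM in RYGB, 115 to 171 CPM in sham), with Ephb2 as the 1 DEG (1.22, adjusted p = 0.018). In addition 4 of 5 T cell markers were lower, and Paneth cell markers overlapped between the groups in their sum (60.3 to 196 CPM in RYGB, 33.8 to 85.1 CPM in sham). Their part in the values of the members was not tested.

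**Figure D5:**
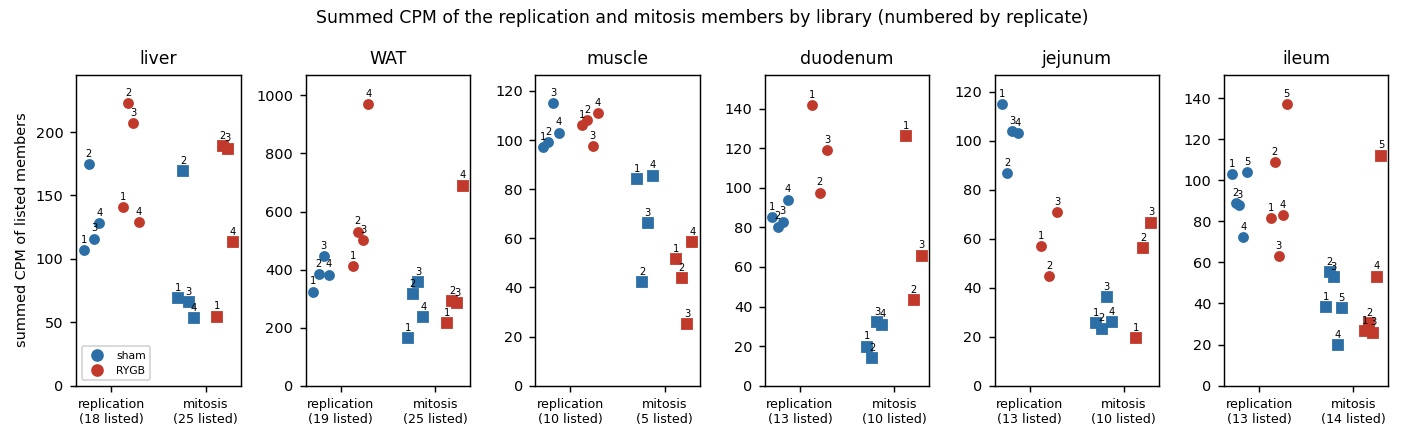
Summed CPM (y axes, linear from 0, a scale of its own in each tissue) of the listed replication members (circles) and mitosis members (squares) in each library, with sham in blue and RYGB in red, numbered by replicate. In duodenum all 3 RYGB libraries lie above the 4 sham libraries in both sums, in jejunum the RYGB libraries lie below in the replication sum, and single libraries stand out in WAT (RYGB replicate 4), ileum (RYGB replicate 5) and liver (RYGB replicates 2 and 3, sham replicate 2). The replication sum of jejunum holds Mcm2 and Ccne2, the members with the lowest log2 fold changes there.

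Across the tissues the same gene had different signs, and these differences between tissues were not tested. The log2 fold change of Mcm2 was above 0 in ileum (1.21), WAT (1.05), duodenum (1.01) and liver (0.62) and below 0 in muscle (-0.20) and jejunum (-2.93). Cdt1 was at 0.79 in liver, 1.12 in WAT, 0.50 in duodenum, -0.98 in jejunum and -0.69 in ileum. Pcna, the most abundant listed member per kb in most tables, was within 0.39 of no change in all 6 tissues and a DEG in none. The summed replication members were 97.6 to 142 CPM in the RYGB duodenum and 80.4 to 94.1 CPM in the sham duodenum, and 44.7 to 70.7 CPM in the RYGB jejunum and 86.6 to 115 CPM in the sham jejunum. These sums were not tested, and both hold Mcm2 and Ccne2. In jejunum Mcm2 had 0.8 to 3.2 CPM in RYGB and 17.4 to 31.0 CPM in sham, and Ccne2 0.7 to 10.7 and 10.7 to 35.0 CPM. The listed DNA synthesis members of jejunum overlapped in their sum (29.0 to 38.8 CPM in RYGB, 28.5 to 35.5 CPM in sham), so the lower replication sum was not shared by all roles.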

How the data were processed

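RNA was sequenced in 48 libraries of 6 tissues, and the authors deposited 1 table of CPM (counts scaled to a common library total) a tissue, rounded to 0.1. In 8 columns the deposited sum passed that total, and these were handled as a score on the same scale. Per the submitters' processing notes HTSeq and GRCm38 were used; the aligner, the annotation and the use of strand in counting are not given in the sources used here. No counts were given, so the depth is unknown and rounding limits the precision of low genes.

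Repeated lines of a gene were counted once (in muscle 408, WAT 379, jejunum 359, ileum 326, duodenum 298, liver 1), and 12 faulty liver lines were dropped. In each tissue RYGB and sham were compared with limma 3.58.1 (trend, R 4.3.3) on log2(CPM + 1) for genes whose mean was 1 CPM or more, with Benjamini-Hochberg adjustment, and the scripts were tested on simulated data. A DEG had an adjusted p under 0.05 and a fold change of at least 1.5. Tables, positions and figures used Python 3.11.15, pandas 2.3.3, numpy 2.4.6 and matplotlib 3.10.9.

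The members and the gene lists were chosen with earlier results of these data known. Values by library are given for up to 8 members with the smallest p in a tissue and for Mki67, Top2a, Pcna, Mcm2, Ccnb1 and Cdk1 where listed; of other lists, up to 4 genes, and every DEG of a list with 5 or fewer, except that some genes of these lists are not reported here. Gene positions are from GENCODE M21 (GRCm38) and promoters from RefSeq (GRCm38.p6). Alternatives were a pseudocount of 0.1 CPM, no minimum, scaling by the median ratio, lane or replicate as a covariate, no trend, the adjusted p alone, and leaving out each library.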

Additional observations from a re-analysis of the deposited data

Results flagged for a closer look

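Single libraries stood apart from their group in 10 of the 112 groups of members tested, by a gap to the nearest library that took more of the group's range than Dixon's limit allows. Chance would flag 5.6 of them. The gaps and ranges were taken on the log2(CPM + 1) scale, while the levels in brackets are CPM. In liver, sham replicate 2 was high for Mcm6 (17.7 CPM against 9.0 in the next library, a gap of 0.843 of the range) and for Mki67 (21.2 against 8.6 CPM, 0.863). In WAT, sham replicate 1 was low for E2f1 (13.0 against 18.1 CPM, 0.896) and sham replicate 3 was high for Mcm4 (34.7 against 30.0 CPM, 0.844). In jejunum, sham replicate 4 was high for Birc5 (6.8 against 4.8 CPM, 0.894) and sham replicate 3 for Top2a (5.4 against 2.7 CPM, 0.866). In ileum, sham replicate 4 was low for Mcm2 (3.9 against 17.0 CPM, 0.856). Cdt1 was low in RYGB replicate 3 of the ileum (2.3 against 6.9 CPM, 0.725) and high in sham replicate 5 (17.0 against 10.8 CPM, 0.77), which was also high for Mcm6 (8.1 against 6.7 CPM, 0.808).

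In 5 cases a member had all RYGB libraries above all sham libraries in a tissue and below all of them in another. Of all genes, 26.1% in WAT, 12.7% in duodenum and 2.42% in ileum had each RYGB library above each sham library. In the other direction the share was 12.5% in jejunum and 2.62% in muscle. The share of all genes that turned between tissues was not computed. For Mcm2 the log2 fold changes of WAT and jejunum lay 3.98 apart, and those of ileum and jejunum 4.14 apart. For Cdt1, WAT and jejunum lay 2.10 apart, and duodenum and jejunum 1.48 apart. For Aurka, duodenum and muscle lay 1.35 apart. The tables were normalized separately, and none of these differences was tested.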

How the results depend on the processing

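In WAT the 6 DEGs became 14 with lane as a covariate, all higher, and 6 higher and 1 lower (E2f1) after scaling by the median ratio. The fit with lane drew nothing from RYGB replicate 1 and sham replicate 3 of WAT, each alone in its lane. In liver 1 member (Cdt1, adjusted p = 0.049) was a DEG with a pseudocount of 0.1 CPM, and in jejunum 1 was left with lane as a covariate. In ileum Mcm4 fell short of 1.5-fold after scaling (-0.53), and Mcm2 became a DEG (1.32, adjusted p = 0.0443). Scaling takes away the median shift of all genes, which was 0.13 in liver, 0.11 in WAT and 0.12 in duodenum. Leaving out 1 library gave 2 to 8 DEGs in WAT, 0 to 5 in liver, 0 to 6 in duodenum, 1 to 3 in jejunum, 0 to 3 in ileum and 0 in muscle. In muscle 0 genes of 11966 were DEGs by limma, and 14.6% had an unadjusted p under 0.05.

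Signs turned after scaling for Pcna in liver (-0.0044) and WAT (-0.0032) and Cdk1 in WAT (-0.08), and with lane as a covariate for Mki67 (0.27) and Pcna (0.043) in muscle and Pcna in jejunum (-0.08). Without 1 library at a time they ranged over both signs for Pcna (-0.048 to 0.20), Ccnb1 (-0.032 to 0.41) and Cdk1 (-0.23 to 0.21) in WAT, Pcna (-0.11 to 0.15), Mki67 (-0.44 to 0.69) and Top2a (-0.48 to 0.73) in jejunum, and Mki67 (-0.36 to 0.38) and Top2a (-0.18 to 0.47) in ileum. The median of the members was -0.48 in jejunum without RYGB replicate 3. Of the other values for single members, outside the fits that left out a library, 421 kept their direction and their side of the threshold, 18 passed it newly and 3 no longer did. The causes were not tested.

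Whether replicate numbers pair the libraries is not stated, and so few libraries a tissue cannot settle it. Deviations of same-numbered libraries correlated between -0.281 and 0.389, and in no tissue were all above 0.1. In liver the correlations were 0.267, 0.167, -0.055 and 0.24 for replicates 1 to 4. With the replicate number as a block there were 5 DEGs in liver, 7 in WAT, 5 in duodenum and 3 in jejunum, Mcm4 in ileum had an adjusted p of 0.0684 and Mcm2 one of 0.0397. The fit with lane could not be made in duodenum, which has 1 lane, nor in ileum, where lane and surgery cannot be told apart.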
